A study of Mus musculus with 8 samples.

Results

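Activated B lymphocytes deficient in both Myc and Max were compared with heterozygous control cells. The comparison used 4 of the 8 RNA-seq libraries of the study, 2 in each group, and 12489 of the 15681 genes of the deposited table, namely those with a log2 value of 0 or more in at least 2 of the 8 libraries. The cells were mature B cells sorted from mouse spleen at an age of 8 to 10 weeks. All groups received the same culture, 20 µg/ml lipopolysaccharide (LPS) and 20 ng/ml interleukin 4 (IL-4), which drives resting B cells into growth, division and switching towards IgG1 and IgE, and all were harvested after 72 h. The groups are called control (heterozygous), double_KO (deficient in Myc and Max), Myc_KO and Max_KO. The labels give the genotypes only by these names, without the alleles, the gene that is heterozygous in the controls or the transgene that made the deletion. Nothing in them ties a library to a mouse, so each p-value rests on the spread among libraries, which may be technical.

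Myc is a basic helix-loop-helix transcription factor that binds E-box DNA as a dimer with Max. Max also pairs with the antagonists Mxd1, Mxi1 and Mnt and with Mga, a component of the repressive complex PRC1.6, so that loss of Max removes the partner of activators and repressors alike. In B cells Myc is induced within hours of activation and is known for driving cell growth, ribosome production and glucose metabolism.

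The labels of the double_KO group conflict. The titles and the column names of the deposited values assign the libraries titled KB32_DKO and KB42_DKO to the double knock-out, and these are double_KO replicates 1 and 2 here. The description and the genotype field instead call KB32_DKO a Myc knock-out, and they call KB44_MYC_KO, here Myc_KO replicate 2, a double knock-out. Max was at 28.6 and 31.2 RPM in double_KO replicates 1 and 2, where RPM are estimated reads divided by the effective library size in M. It was at 55 and 54.5 in the control libraries, at 70.5 and 59.8 in Myc_KO and at 16.4 and 15.5 in Max_KO. Both double_KO libraries were therefore below every control and Myc_KO library, and the groups follow the column names for this reason, so the Max level is a description and not a finding. Myc was at 38.7 and 55.3 RPM in double_KO and at 111 and 116 in the controls. These are sums over the whole gene, which also count reads of any transcript left after a partial deletion. Stag3, a meiotic cohesin subunit gene, was at 73.9 and 93.4 RPM in double_KO and at 4.83 and 6.04 in Myc_KO, both under the column names. It was picked from the fit that uses these groups, where it had the lowest adjusted p against Myc_KO, so it is no independent check of the labels. Under the descriptions each of these groups would hold a library with Stag3 below 7 RPM and a library with Stag3 above 70 RPM.

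The libraries held 14.88 to 17.91 M estimated reads. The median absolute log2 difference between the 2 libraries of a group was 0.13 in control and 0.18 in double_KO. Transcripts of mitochondrial DNA made up 5.69% and 4.93% of the control reads and 2.47% and 2.57% of the double_KO reads. The B cell markers Cd79a, Cd79b and Cd22 were abundant in all 4 libraries, with Cd79a at 973 and 963 RPM in control and 878 and 895 in double_KO. Of the 8 listed B cell markers 4 rose (Pax5, Ms4a1, Ebf1 and Ptprc) and 0 fell. Of all genes tested 21.8% rose and 16.8% fell, the measure for this count and that of the T cell markers. The sum of the 8 went from 5285 and 5229 RPM in control to 6948 and 6829 in double_KO. The 10 T cell markers summed to 362 and 319 RPM in control and to 236 and 220 in double_KO, a sum set by Thy1 (323 and 275 RPM in control, 109 and 137 in double_KO). Of the 10 genes 7 rose (4 without control replicate 1) and 1, Thy1, fell: Lck went from 34.1 and 38.3 RPM to 106 and 60.9 and Cd8a from 0.996 and 1.33 to 7.71 and 6.91, and Cd3e, Cd3d and Cd3g were each below 2 RPM in both groups. T cell markers below 1 RPM in both controls, such as Cd3e, were tested only through knock-out libraries. The filter therefore partly sets the count that rose, which was 3 with the stricter filter (log2 value of 2 or more). Of 7 listed NK cell markers 6 had values, which summed to 7.22 and 6.06 RPM in control and 36 and 54.8 in double_KO. Of 10 listed myeloid markers 5 had values, which summed to 2.57 and 3.45 RPM in control and 18 and 9.6 in double_KO. In a bulk library, fewer cells of a type and less RNA per cell cannot be told apart.

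Loss of both proteins was accompanied by changes in 4823 of the 12489 genes (38.6%) at a limma adjusted p under 0.05, of which 2728 were higher in double_KO (21.8% of the genes tested) and 2095 lower (16.8%). Most tested genes of glycolysis (17 of 20), of the cytosolic ribosome (76 of 78), of mitochondrial DNA (13 of 13) and of the hypoxia response (11 of 19) fell. Of 12 immunoglobulin constant region genes 6 fell. Most interferon-stimulated genes (29 of 37) and genes of LPS sensing (11 of 19) rose. At least 2-fold changes numbered 708 upward and 810 downward. Both double_KO libraries were above both controls for 4817 of the 12489 genes and below both for 4377, so groups that do not overlap are common. Without control replicate 1 the number called was 2650 and without control replicate 2 it was 2965, and scaling each library to the same total moved the share of called genes that were higher from 56.6% to 68.9%, with the median difference of all genes going from 0.023 to 0.144. The plot of all genes shows the called genes at every level of expression.

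**Figure D1:**
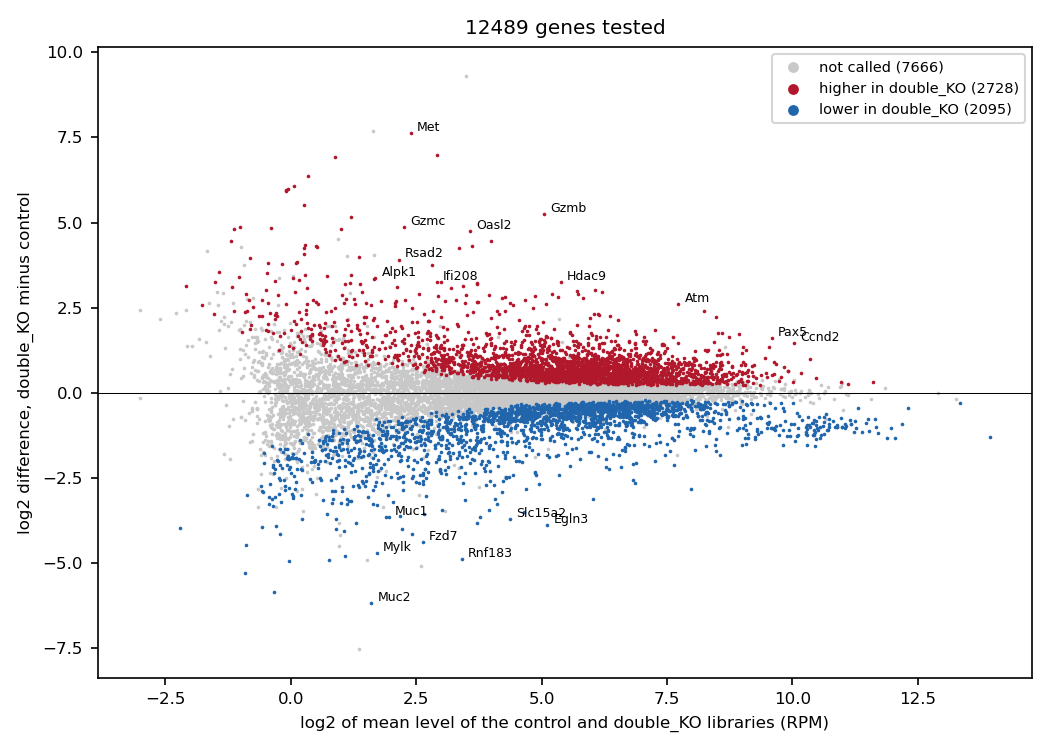
Each point is a gene, with the mean level of the control and double_KO libraries in RPM on a log2 axis and the log2 difference between the group means (double_KO minus control) on the other; red and blue points passed the adjusted p of 0.05. The 2728 red and 2095 blue points lie on both sides of 0 over the whole range of levels, and some of the genes with the largest changes are labelled.

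The direction of change varied with the length of the transcript. Among the 2493 tested genes with the shortest transcripts, whose longest annotated transcript has 131 to 1832 bases, 5.9% were higher and 28.9% lower in double_KO. Among the 2491 with the longest, 5090 bases and more, 46.3% were higher and 7.87% lower. Higher genes had a median longest transcript of 4669 bases, lower genes of 2444 and genes not called of 3046. Across 12460 genes Spearman's rho between length and the log2 difference was 0.33, and across the same genes it was 0.15 for control replicate 2 minus control replicate 1 and 0.01 between the double_KO libraries; genes are not independent replicates and no test was made. When a smooth trend with length was removed from each library, an alternative added after seeing the data, 2049 genes were higher and 2026 lower, 4 of them in the direction opposite to that without it. Counts with this trend removed are given beside most of the lists that it moved by over 1.5 times. The plot of calls by length shows both shares moving in opposite directions over 5 groups of genes.

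**Figure D2:**
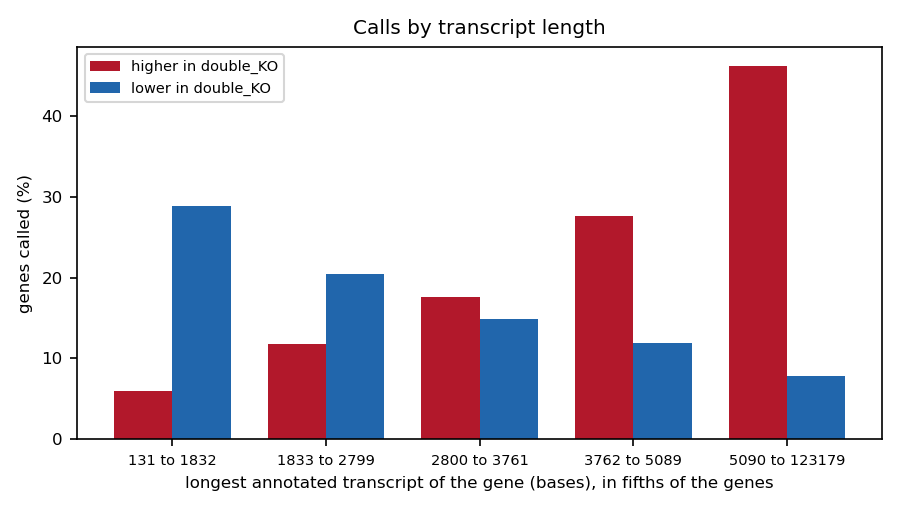
Bars give the percentage of genes called higher (red) and lower (blue) in double_KO against control, in 5 groups of genes of near equal number ordered by the length of the longest annotated transcript in bases. The red share rises from 5.9% to 46.3% and the blue share falls from 28.9% to 7.87% from the shortest to the longest group.

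In the plot of gene lists the members called in each direction stand beside the shares of all genes tested. These shares, 21.8% higher and 16.8% lower, are the measure for each list count below. The results are ordered by the roles of the genes, beginning with the network that Myc and Max belong to.

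**Figure D3:**
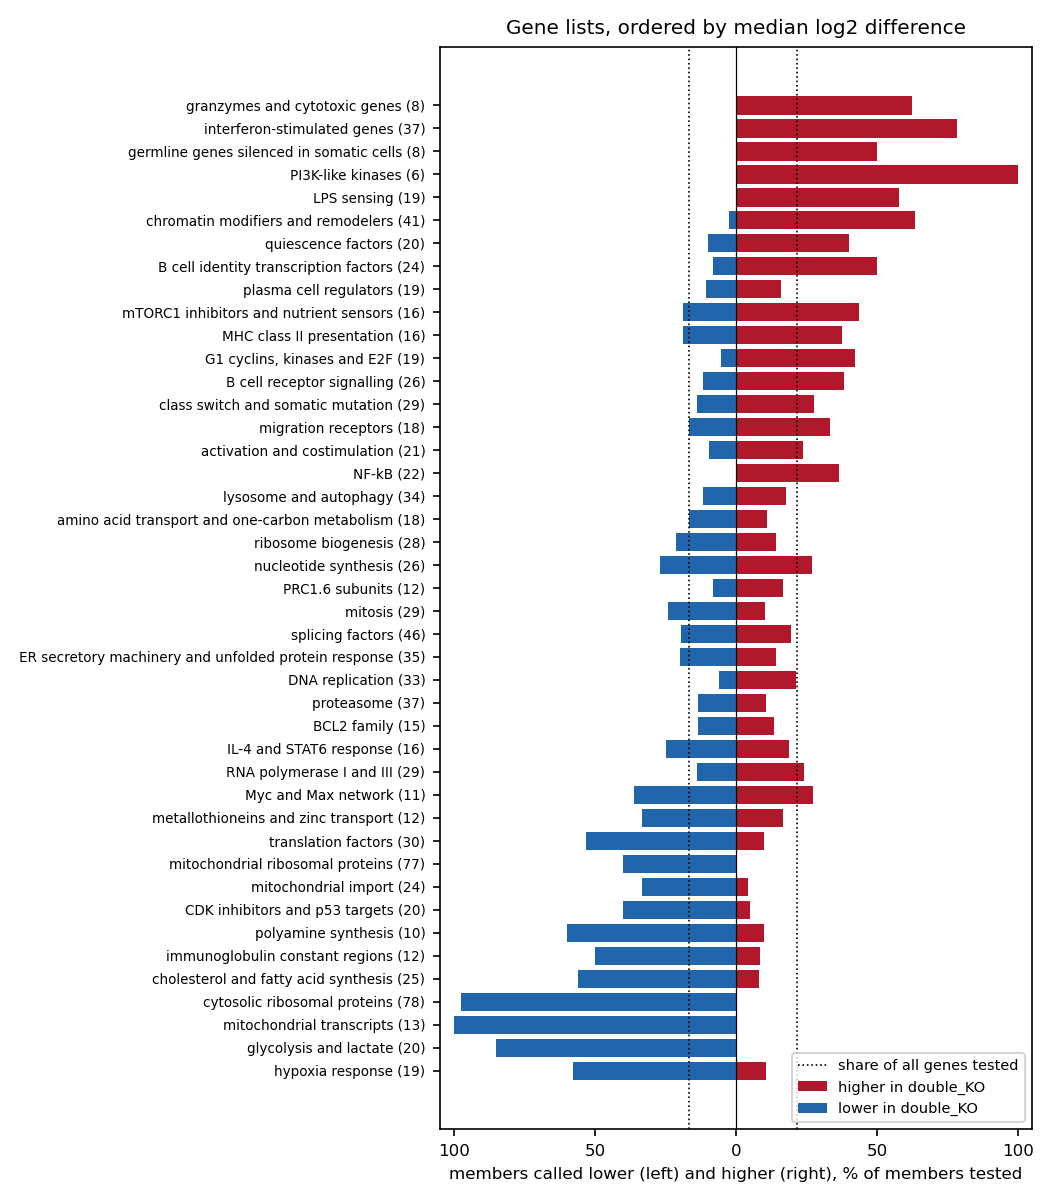
Each row is a gene list with its number of tested members, and the bars give the percentage of these members called higher (right, red) and lower (left, blue) in double_KO against control; dotted lines mark the shares over all genes tested, 21.8% and 16.8%. Granzymes, interferon-stimulated genes, germline genes and PI3K-like kinases stand at the top and mitochondrial transcripts, glycolysis and the hypoxia response at the bottom, in the order of their median log2 difference.

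Among the 11 tested genes of the Myc and Max network, 3 rose and 4 fell, the latter including Myc, which is deleted, and Max, which assigned the libraries. Mga, the large Max partner of PRC1.6, went from 64.2 and 70.5 RPM in control to 184 and 200 in double_KO (log2 difference 1.51 ± 0.10, SE, adjusted p = 0.00016; GRCm38 chromosome 2, 119897228 to 119969581). Mnt, a Max-binding repressor, went from 22.4 and 28.5 RPM to 67.6 and 78.2 (1.53 ± 0.23), a call lost with groups from the descriptions (adjusted p = 0.0971, the highest over the alternatives). The antagonists Mxd1 and Mxi1 moved the other way, Mxd1 from 37.7 and 37.8 RPM to 13.6 and 16.3 and Mxi1 from 36.2 and 43.1 to 14.8 and 13.5 (log2 differences -1.34 ± 0.20 and -1.48 ± 0.24). Mlx, the partner of the glucose-sensing arm of the network, was at 34.9 and 34.4 RPM in control and 42.4 and 37.3 in double_KO and was not called. The double_KO and control libraries did not overlap for Mga, Mnt, Mxd1 and Mxi1, as for most genes tested. With the length trend removed Mga was still higher, at a log2 difference of 0.88.

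Of the 12 PRC1.6 subunit genes 9 were not called, among them L3mbtl2 (110 and 115 RPM in control, 116 and 109 in double_KO), Pcgf6 and E2f6. Germline genes that this complex is known to silence were mostly untranscribed: 8 of 25 listed genes passed the filter, and of these 4 rose. A gene near 0 in control passed only through libraries where it is high, so the filter partly sets this count. Besides Stag3 (22.2 and 19.4 RPM in control, log2 difference 2.00 ± 0.18; adjusted p = 0.92 with groups from the descriptions) these included the meiotic cohesin gene Smc1b, with 3 estimated reads over both control libraries and 84 over both double_KO libraries. This is a ratio of 25.2 (exact 95% interval 8.35 to 125, counting error only). Tdrkh, a piRNA pathway gene, went from 1.18 and 2.8 RPM to 6.2 and 6.74. Each of these 3 was higher in both double_KO libraries than in both controls.

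Of 78 cytosolic ribosomal protein genes 76 fell and 0 rose (median log2 difference -1.02, against 0.023 over all genes), and 75 to 77 fell without any 1 control or double_KO library. Rps18 went from 2272 and 2041 RPM to 900 and 904, and Rpl26 from 1602 and 1466 to 636 and 632, with log2 differences of -1.25 ± 0.08 and -1.27 ± 0.08. The members not called were Rpl29, at 969 and 466 RPM in control and 408 and 456 in double_KO, and Rps27, at 837 and 787 against 727 and 622; both were named after their values were seen. Ribosomal protein transcripts are short, with a median longest transcript of 1076 bases, and with the length trend removed 76 still fell, with a median of -0.75. After quantile normalization 68 fell, with a median of -0.50. Many ribosomal protein genes have processed pseudogenes, so the split of their reads among copies is uncertain.

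Of 30 translation factors 16 fell and 3 rose, and without 1 library 9 to 13 fell; with the length trend removed 14 fell and 0 rose. Eef1b2, an elongation factor subunit, went from 1282 and 1186 RPM to 567 and 582, and the cap-binding inhibitor Eif4ebp1 from 46.8 and 49.2 to 22.9 and 26.8. The scaffold Eif4g1 rose from 519 and 474 RPM to 691 and 694, a call lost with the length trend removed (adjusted p = 0.1). Of 28 ribosome biogenesis factors 6 fell and 4 rose, shares near those of all genes, and 2 fell without control replicate 1. Nop56, a box C/D snoRNP protein, went from 400 and 342 RPM to 232 and 245, while the large pre-rRNA processing factor Utp20 went from 64.9 and 60.4 to 119 and 130. Nucleolin (Ncl) and fibrillarin (Fbl) were not called, Ncl at 1220 and 1086 RPM in control and 1036 and 1231 in double_KO. Of 29 RNA polymerase I and III genes 7 rose and 4 fell, 4 rising without control replicate 2 and 2 falling without control replicate 1. The polymerase shares too were near those of all genes, 21.8% higher and 16.8% lower. Polr1d, a subunit shared by both enzymes, fell from 177 and 158 RPM to 88.9 and 98.8, while Polr3b, a large polymerase III subunit, rose from 35.5 and 32.1 to 62.8 and 62.3.

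All 13 tested protein-coding transcripts of mitochondrial DNA fell (median log2 difference -1.13; 11 fell after quantile normalization, with a median of -0.58), with mt-Co2 going from 6256 and 4719 RPM to 2120 and 2144 and mt-Nd1 from 4267 and 3193 to 1570 and 1732. Of 77 nuclear genes of the mitochondrial ribosome 31 fell and 0 rose (median -0.28), but only 10 fell without control replicate 1. Mrps15 went from 99.7 and 95.8 RPM to 48.9 and 54.7. Of 24 import genes 8 fell and 1 rose, 3 falling without control replicate 1 and 4 with the length trend removed; Timm13, a chaperone of the intermembrane space, went from 108 and 89.2 RPM to 63.6 and 59.9.

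Of 20 genes of glycolysis and lactate 17 fell and 0 rose (median -1.23), with 13 to 16 falling without any 1 control or double_KO library, 18 with the length trend removed and 15 after quantile normalization. Gapdh went from 6373 and 5729 RPM to 2311 and 2475, Gpi1, the second enzyme of the pathway, from 1430 and 1386 to 560 and 608, and the muscle-type phosphofructokinase Pfkm from 28.3 and 29.7 to 9.05 and 12.1. Slc16a3, which exports lactate, went from 188 and 197 RPM to 38.6 and 27.5 (log2 difference -2.56 ± 0.62, adjusted p = 0.0128), and its call was lost without control replicate 1, control replicate 2 or double_KO replicate 2 (adjusted p up to 0.0709 over the alternatives). The glucose transporter Slc2a1 was at 183 and 165 RPM in control and 84.8 and 59.6 in double_KO, and it lost its call in 4 alternatives (adjusted p up to 0.0973). Hexokinase 2 (Hk2), at 106 and 102 RPM in control and 52.9 and 45.8 in double_KO, was not called (adjusted p = 0.0711). The double_KO libraries were below the control libraries for each of these genes, as they were for 4377 of all 12489 genes tested.

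Of 19 hypoxia-response genes 11 fell and 2 rose (median -1.48), and 9 to 11 fell without any 1 library of the groups. Egln3, an oxygen-sensing prolyl hydroxylase, went from 69.9 and 60.2 RPM to 4.86 and 3.84 (14.9-fold lower, log2 difference -3.90 ± 0.56), and P4ha2, a collagen prolyl hydroxylase, from 8.09 and 9.34 to 0.335 and 0.768. Vegfa, the endothelial growth factor, went from 119 and 137 RPM to 26.7 and 28.9, and Bnip3l, a mitophagy receptor, from 244 and 245 to 52.8 and 68.7. The 2 members that rose were the transcription factor subunits themselves, Hif1a from 59.5 and 60.3 RPM to 129 and 116 and its partner Arnt from 48.8 and 50.6 to 78.9 and 82.3. The list therefore holds regulators and targets that moved in opposite directions.

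Other biosynthetic genes changed by pathway. Of 25 genes of cholesterol and fatty acid synthesis 14 fell and 2 rose (median -0.61), with 19 falling when the length trend was removed. The mevalonate pathway genes Fdps and Mvk went from 298 and 292 RPM to 138 and 130 and from 58 and 56.5 to 22.7 and 27, while the desaturase gene Scd1 rose from 416 and 455 to 651 and 671. Of 10 polyamine genes 6 fell and 1 rose. Odc1, the rate-limiting enzyme of polyamine synthesis and a known Myc target, was not called, at 187 and 175 RPM in control and 170 and 236 in double_KO. Smox, which oxidises spermine, fell from 8.03 and 11.5 RPM to 1.34 and 1.75, and the antizyme inhibitor Azin1 rose from 143 and 140 to 191 and 201.

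Nucleotide synthesis was split, with 7 of 26 genes higher and 7 lower; 2 were higher without control replicate 2 and 2 lower without control replicate 1. All genes tested were split too, with 21.8% higher and 16.8% lower. Tk1 and Impdh2, of thymidine salvage and guanine nucleotide synthesis, fell from 183 and 184 RPM to 113 and 122 and from 390 and 359 to 246 and 252. Dck, deoxycytidine kinase, rose from 61.3 and 62.1 RPM to 94 and 93.2, and Cad, which starts pyrimidine synthesis, was at 218 and 203 in control and 218 and 246 in double_KO and was not called. The glutamine transporter Slc1a5 fell from 377 and 348 RPM to 205 and 206, and another, Slc38a1, rose from 125 and 115 to 195 and 203. Of 16 regulators of mTORC1 and nutrient sensing 7 rose and 3 fell; 4 rose without control replicate 1, 1 fell without control replicate 2, and 1 rose and 4 fell with the length trend removed. Of 12 metallothionein and zinc transport genes 2 rose and 4 fell, 2 falling without control replicate 1 and 7 with the length trend removed. The metallothionein Mt1 fell from 26.4 and 27.3 RPM to 3.24 and 5.87, and the zinc importer Slc39a8 from 29.8 and 32.6 to 11.4 and 11.2.

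Most genes of replication and mitosis were not called, as was true of all genes tested, of which 21.8% were higher and 16.8% lower. Of 33 DNA replication genes 7 rose and 2 fell, and of 29 mitosis genes 3 rose and 7 fell. Mcm4 and Pola1, of the replicative helicase and the primase complex, rose from 215 and 205 RPM to 312 and 298 and from 44.2 and 45.8 to 83.2 and 82. The mitotic kinase Aurka and the survivin gene Birc5 fell from 85.8 and 82.8 RPM to 54.5 and 62.2 and from 192 and 167 to 100 and 118, while cyclin B1 (Ccnb1) was at 141 and 133 in control and 119 and 167 in double_KO and was not called. Both counts depended on 1 library: 3 replication genes rose and 2 mitosis genes fell without double_KO replicate 1. With the length trend removed 11 mitosis genes fell.

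Among 19 G1 cyclins, partner kinases and E2F genes 8 rose and 1 fell, and 5 rose without control replicate 1 or without double_KO replicate 2. Ccnd2, the D-type cyclin of activated B cells, went from 579 and 540 RPM to 1557 and 1531 (log2 difference 1.47 ± 0.09, adjusted p = 0.000147). Its partner kinase gene Cdk6 went from 21.6 and 17.9 RPM to 43.5 and 46.1, and the pocket protein genes Rb1 and Rbl1 from 46.6 and 50.5 to 87.3 and 83.7 and from 54.6 and 53.7 to 121 and 106. E2f2 was not called, at 123 and 128 RPM in control and 109 and 135 in double_KO.

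Of 20 CDK inhibitors and p53 targets 8 fell and 1 rose, and 4 fell without control replicate 2. Cdkn1a, the p21 inhibitor of cyclin-dependent kinases, went from 43.4 and 62 RPM to 17.1 and 22.3, Phlda3 from 22.5 and 28 to 10.6 and 11.2 and Bax, a pore-forming death effector, from 151 and 159 to 103 and 93.8. Sesn1 was the member that rose, from 16.2 and 17.2 RPM to 35.3 and 27.4, and Trp53 itself was at 215 and 196 in control and 186 and 164 in double_KO and was not called. In the BCL2 family the survival gene Bcl2 rose from 62.9 and 60.7 RPM to 124 and 110 and Bcl2l11, which encodes the death inducer Bim, fell from 138 and 139 to 55 and 75.2, while Mcl1 was at 536 and 531 in control and 515 and 507 in double_KO.

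Of 24 transcription factors of B cell identity 12 rose and 2 fell (median 0.34), 7 rising without control replicate 2 and 8 with the length trend removed. Pax5, which commits cells to the B lineage, went from 382 and 375 RPM to 1066 and 1249 (log2 difference 1.61 ± 0.18, adjusted p = 0.000464). Bach2, which holds back plasma cell differentiation, went from 59.3 and 67.7 RPM to 178 and 222, Ebf1 from 55 and 54.3 to 126 and 145 and Foxp1, a factor of resting B cells, from 99.7 and 92.4 to 281 and 318. Tcf3, which encodes the E2A proteins, fell from 402 and 400 RPM to 236 and 223. Each of these genes had double_KO libraries outside the range of the controls, as most genes tested had. With the length trend removed the log2 differences of Pax5, Bach2, Ebf1 and Foxp1 were 1.14, 1.14, 0.98 and 1.22, each with a limma adjusted p below the threshold.

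Receptor and presentation genes showed the same mixture. Of 26 genes of B cell receptor signalling 10 rose and 3 fell, 1 falling without control replicate 1. Ms4a1, which encodes CD20, went from 448 and 399 RPM to 1087 and 1046, and the kinase genes Syk and Lyn from 273 and 284 to 500 and 456 and from 73.3 and 79.5 to 130 and 132. The coreceptor subunit Cd81 fell from 168 and 187 RPM to 113 and 117, and the signalling chain Cd79a was not called, at 973 and 963 in control and 878 and 895 in double_KO. Of 16 genes of class II presentation 6 rose and 3 fell, with 3 rising without control replicate 1, control replicate 2 or double_KO replicate 1. Ciita, the master coactivator of these genes, went from 168 and 198 RPM to 501 and 519, and Rfx5, of the factor that binds their promoters, from 49.7 and 59.7 to 116 and 114. The other subunit genes of that factor fell, Rfxap from 32.9 and 30 RPM to 21.5 and 15.9 and Rfxank from 38.8 and 41.3 to 20.1 and 24.8, and the invariant chain Cd74 was at 7775 and 7600 in control and 7674 and 7414 in double_KO and was not called.

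Of 19 genes that sense LPS or carry its signal 11 rose and 0 fell (median 0.63), 8 to 10 of them without any 1 control or double_KO library and 10 with the length trend removed. Tlr4, the LPS receptor, went from 4.11 and 3.94 RPM to 18.1 and 23.9, Cd180, a related LPS receptor of B cells, from 33.8 and 35.4 to 102 and 116, and the nucleic acid receptors Tlr7 and Tlr9 from 61.9 and 73 to 141 and 129 and from 22.6 and 27.6 to 94.7 and 100. Myd88, the adaptor shared by Tlr4, Tlr7 and Tlr9, was at 73.6 and 65.4 RPM in control and 63 and 68.1 in double_KO. Ly96, the Tlr4 cofactor, was at 4.54 and 4 RPM against 4.53 and 4.22. Neither gene was called. Some markers of myeloid cells, which use Toll-like receptors too, were also higher. The macrophage gene Adgre1 went from 0.809 and 1.76 RPM to 15.4 and 5.43, and Itgam and Itgax were higher as well. Csf1r, at 0.204 and 0.118 RPM in control and 0 and 0.0691 in double_KO, was not. Lyz2, at 0.0622 and 0.303 RPM in control and 0.112 and 0.11 in double_KO, was not either. The part of such cells in this result was not tested. Of 22 NF-kB genes 8 rose and 0 fell, and 4 rose with the length trend removed or without control replicate 1. Nfkbiz, an inducible nuclear cofactor, went from 28 and 32.8 RPM to 105 and 91.4, while Nfkb1 was at 1035 and 924 in control and 1001 and 973 in double_KO.

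Of 37 interferon-stimulated genes tested 29 rose and 0 fell (median 1.29), 24 to 29 of them without any 1 control or double_KO library and 31 with the length trend removed. Ifit1, which binds viral RNA, went from 9.83 and 10.2 RPM to 70.7 and 69.4, and the RNA sensor Ifih1 from 38.5 and 47.5 to 130 and 146. Iigp1 and Oasl2 were among the 12 genes with the highest differences in the whole comparison, Iigp1 at 0.436 and 2 RPM in control and 24.1 and 14.5 in double_KO and Oasl2 at 0.498 and 0.788 against 38.6 and 8.01. The double_KO libraries of Oasl2 were far apart and both lay above the controls. Mx1, at 7.34 and 8.37 RPM in control and 15.7 and 38.6 in double_KO, was not called.

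Genes of class switching moved in both directions, as did all genes tested (21.8% higher, 16.8% lower). Several constant region transcripts were lower, and switching itself was not measured. Batf, a factor required for switching, went from 395 and 297 RPM to 173 and 124, a call lost without control replicate 1 (adjusted p = 0.056, the highest over the alternatives). Of 29 genes of switching and somatic mutation 8 rose and 4 fell, 2 falling without control replicate 1 and 8 with the length trend removed. The uracil glycosylase Ung rose from 39.4 and 36.8 RPM to 75.2 and 60.3, a call lost with groups from the descriptions (adjusted p = 0.721). The double-strand break repair gene Xrcc5 went from 12.7 and 12.9 RPM to 26.9 and 27.8. Trp53bp1, another, went from 62.3 and 65.6 RPM to 111 and 102, a call lost with the length trend removed (limma adjusted p = 0.161). Of 12 immunoglobulin constant region genes 6 fell and 1 rose, and 3 fell without control replicate 2. Ighd, the IgD constant region that resting B cells carry, went from 186 and 148 RPM to 637 and 490. Ighg1 went from 2673 and 2333 RPM to 1484 and 1504, a call lost after quantile normalization (adjusted p = 0.319, the highest over the alternatives). Ighe was at 370.5 and 436 RPM in control and 94 and 168 in double_KO, and its call was lost without control replicate 2 or double_KO replicate 1. Constant region genes hold near-identical stretches, so the split of their reads is uncertain.

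Of 19 plasma cell regulators 3 were higher and 2 lower; 1 was higher without control replicate 1 and 5 without double_KO replicate 1, and 5 were lower with the length trend removed. Xbp1 and Mzb1, of the secretory programme, fell from 793 and 680 RPM to 375 and 417 and from 791 and 838 to 441 and 554. Prdm1, which encodes the plasma cell factor Blimp1, was at 39 and 39.1 RPM in control and 37 and 65.2 in double_KO, and Irf4 at 211 and 226 against 241 and 341; neither was called. Tnfrsf13b, which encodes the receptor TACI, rose from 259 and 262 RPM to 572 and 562. Among 21 activation genes 5 rose and 2 fell (3 and 1 without control replicate 2): Icosl, the ligand of the T cell costimulator ICOS, rose from 2.74 and 4.61 RPM to 25.9 and 19.7, and Cd86 fell from 168 and 170 to 84.1 and 104. In the IL-4 response the receptor gene Il4ra fell from 1545 and 1430 RPM to 920 and 797, a call lost after quantile normalization (adjusted p = 0.212, the highest over the alternatives), while the IL-4 target Fcer2a, which encodes CD23, was at 1042 and 1414 in control and 1130 and 972 in double_KO and was not called. Sphk1, which makes sphingosine 1-phosphate, fell from 11.1 and 9.19 RPM to 0.661 and 0.439. The plot of levels by library shows a choice of 26 named genes. Genes that were not called, such as Prdm1, Irf4 and Mx1, are not among them.

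**Figure D4:**
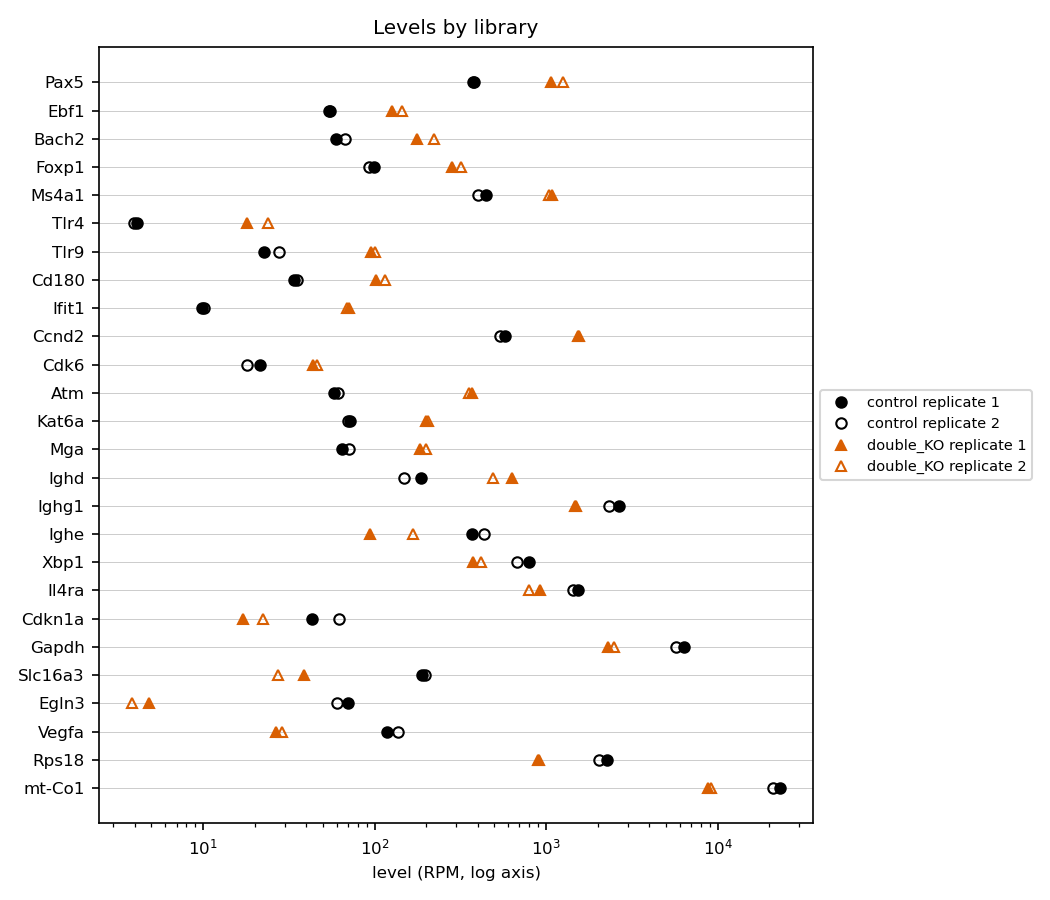
Each row is a gene and each symbol a library, with the level in RPM on a log axis; circles are control and triangles double_KO, filled for replicate 1 and open for replicate 2. For each of the 26 genes both triangles lie on the same side of both circles, to the right from Pax5 to Ighd and to the left from Ighg1 to mt-Co1. The genes shown are a choice, so this separation is no result. Over all 12489 genes tested both double_KO libraries were above both controls for 4817 and below both for 4377.

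Several very long genes rose. The 6 members of the PI3K-like kinase family, giant proteins that include kinases of DNA damage and growth signalling, all rose, and their median longest transcript has 11149 bases. Atm, the kinase of the double-strand break response, went from 58.3 and 61 RPM to 370 and 358 (6.1-fold, log2 difference 2.61 ± 0.17, adjusted p = 0.000158; GRCm38 chromosome 9, 53439149 to 53536740), and Smg1, of nonsense-mediated decay, from 136 and 142 to 279 and 275. With the length trend removed 2 of the 6 rose, Atm at a log2 difference of 2.06 and Smg1 at 0.34, and Trrap went from 0.48 to -0.13. Of 41 chromatin modifiers 26 rose and 1 fell (median 0.47, median longest transcript 8187 bases), and with the length trend removed 10 rose and 3 fell (median 0.03); without control replicate 1 16 rose. Kat6a, a histone acetyltransferase, went from 71.8 and 70.2 RPM to 198 and 204 and had a log2 difference of 0.98 with the trend removed. Kmt2a and Kmt2c, histone methyltransferases, went from 141 and 163 RPM to 315 and 300 and from 47.2 and 52.2 to 109 and 114. Among splicing factors, 9 of 46 genes rose and 9 fell (4 rose without control replicate 2): the large core protein Prpf8 rose from 440 and 444 RPM to 747 and 792 and the small Sm protein gene Snrpf fell from 127 and 118 to 62.7 and 64.5. The shares of splicing factors were near those of all genes tested, 21.8% higher and 16.8% lower. What produced the dependence on length was not tested.

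Other genes with the largest differences follow. Met, the gene of a receptor tyrosine kinase that binds hepatocyte growth factor, had 1 estimated read over both control libraries and 379 over both double_KO libraries, a ratio of 342 (exact 95% interval 60.9 to 1.35e+04, counting error only). Gzmb and Gzma, proteases of cytotoxic lymphocytes, went from 2.18 and 1.21 RPM to 53.8 and 74.6 and from 2.61 and 0.667 to 25.6 and 34.9. Of 8 tested granzyme and cytotoxic genes 5 rose, and 3 of 5 with the stricter filter; members near 0 in control passed only through libraries where they are high, so the filter partly sets this count. Perforin (Prf1) was at 3.86 and 4.55 RPM in control and 5.64 and 12.3 in double_KO and was not called. Of the 4 tested NK cell markers 3 rose, with Nkg7 going from 0.187 and 0.0606 RPM to 2.24 and 3.29 and Eomes from 0.56 and 0.788 to 2.35 and 3.56. Both were below 1 RPM in both controls and passed only through knock-out libraries, so the filter partly sets this count as well. The receptor genes Ncr1 and Klrk1 were at 0 in both controls, Ncr1 at 0.0559 and 0.165 RPM and Klrk1 at 0.168 and 0.658 in double_KO. Of the 10 T cell markers 7 rose, a count also partly set by the filter (3 with the stricter filter), with Cd3e at 0 and 0.243 RPM in control and 1.73 and 0.932 in double_KO. The part of such cells in the granzyme result was not tested. Hdac9, a histone deacetylase gene, went from 6.85 and 9.16 RPM to 84.5 and 66.8.

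At the lower end, Rnf183, a ubiquitin ligase gene, went from 20.6 and 20.7 RPM to 0.727 and 0.603 (30-fold lower, log2 difference -4.91 ± 0.40). Mylk, which encodes a myosin light chain kinase, went from 6.54 and 6.18 RPM to 0.279 and 0.165, and the mucin genes Muc2 and Muc1 from 6.29 and 5.7 to 0 and 0.219 and from 7.03 and 7.34 to 0.447 and 0.658. The level of Muc2 in double_KO replicate 1 is 0 estimated reads, so its fold depends on the offset of 0.5 read. Pygl, of glycogen breakdown, went from 7.1 and 6.67 RPM to 0.503 and 0.548. The calls of Fzd7, Rgs11, Slc15a2 and Slpi, also among the 12 lowest, were lost in 3 to 7 of the alternatives. By the rule that chose these genes, their double_KO and control libraries do not overlap.

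Fewer genes were called between double_KO and the groups that lack 1 of the proteins. Against Max_KO 5 genes were called (0.04% of those tested; 755 at an unadjusted p under 0.05), and against Myc_KO 57 were (0.456%; 1602 unadjusted), 52 of them higher in double_KO. With groups from the descriptions limma called 0 genes against Myc_KO (1315 at an unadjusted p under 0.05) and 26 against Max_KO. With a term for whether the title number is in the thirties or forties it called 291 and 31. Both control titles are in the thirties, while each other group has 1 title in the thirties and 1 in the forties. The number series is therefore not balanced between double_KO and control, where 5673 genes were called with this term. These 2 comparisons share the double_KO libraries, and the count of 57 was between 9 and 113 without any 1 library. A p above the threshold does not show that the groups are alike, and with 2 libraries a group small differences stay below it.

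Against Myc_KO the gene with the lowest adjusted p was Stag3 (15.3-fold, adjusted p = 0.00014). Camk2a, a neuronal calcium-dependent kinase gene, was at 16.2 and 16.6 RPM in double_KO and 3.33 and 2.83 in Myc_KO, with 16.6 and 21.9 in control. Ptprs, a receptor phosphatase, was at 62 and 53.8 RPM against 13.7 and 9.73, with 46.9 and 47.2 in control. Il1r2, a decoy receptor for interleukin 1, was at 12 and 15.1 RPM in double_KO, 3.59 and 3.85 in Myc_KO and 123 and 112 in control. Of the 52 genes higher than in Myc_KO, 25 were also higher than control, 9 were lower than control and 18 were not called against control. Over all genes tested 21.8% were higher than control and 16.8% lower. Both comparisons use the same double_KO libraries, which favours genes that are high in them, so this split is no independent result. Meiotic and germ cell genes among the 52 included Gm4969, also known as Meiosin, besides Rnf17, Tcam1 and Syce2. Gm4969 was at 14.6 and 15.2 RPM in double_KO, 0 and 0.16 in Myc_KO and 0.124 and 0.0606 in control. In Max_KO, Gm4969 was at 23.9 and 30.7 RPM, Stag3 at 113 and 140, Ptprs at 90.2 and 85.4 and Camk2a at 22.33 and 23.85. These levels were above those in double_KO. Shmt1 went the other way, at 79.5 and 72.5 RPM in Max_KO and 95.1 and 83.1 in double_KO. None of the 52 genes was called against Max_KO. Among those chosen after their values were seen, others encode base excision enzymes (Ung and Apex1), purine and folate enzymes (Atic, Gart, Shmt1 and Mthfd1l), nucleolar proteins (Rrp12, Nol8, Nat10 and Sdad1) and glycolytic enzymes (Tpi1 and Aldoc). Apex1 was at 178 and 156 RPM in double_KO, 75.2 and 81.6 in Myc_KO and 144 and 130 in control, and Tpi1 at 449 and 471 RPM, 138 and 152, and 1371 and 1317. Beyond Max, the genes lower than in Myc_KO were Pcmtd1, H2afv, Dennd3 and Gm26695, and Ighg1 was 1.82-fold higher than in Myc_KO.

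The canonical E-box CACGTG, a palindrome that reads the same on both strands and to which Myc-Max, Mnt-Max and Mga-Max dimers are known to bind, was searched in the RefSeq promoter windows of GRCm38.p6, which span 250 bases before to 50 after each annotated start. A window was found by symbol for 9331 of the 12489 genes tested, and 12.1% of these genes had the motif. Of the 52 genes higher in double_KO than in Myc_KO 44 had a window, and 27 of the 44 held the motif (61.4%). Among genes higher than control in double_KO the share was 14.2%, among those lower it was 160 of 1593 genes, and among those not called 11.9%. Over all 32851 windows of the table the share was 7.15%. These shares are a description, with no test, and a match is not a bound site. For 6 of the genes, chosen after their values were seen to show motifs at different places and a window without any, the window is printed below to base 30 after the start, 5′ to 3′, with CACGTG in capitals. They are Stag3 (chr5:138280259-138280538, plus strand), Il1r2 (chr1:40085843-40086122, plus), Pogk (chr1:166409799-166410078, minus), Apex1 (chr14:50924699-50924978, plus), Atic (chr1:71556906-71557185, plus) and Ung (chr5:114130185-114130464, plus).
Stag3: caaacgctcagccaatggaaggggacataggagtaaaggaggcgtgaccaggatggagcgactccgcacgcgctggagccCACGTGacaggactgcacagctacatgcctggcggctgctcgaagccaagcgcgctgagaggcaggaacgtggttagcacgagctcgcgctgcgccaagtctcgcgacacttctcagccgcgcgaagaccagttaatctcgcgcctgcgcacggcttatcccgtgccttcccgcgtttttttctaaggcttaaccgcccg
Il1r2: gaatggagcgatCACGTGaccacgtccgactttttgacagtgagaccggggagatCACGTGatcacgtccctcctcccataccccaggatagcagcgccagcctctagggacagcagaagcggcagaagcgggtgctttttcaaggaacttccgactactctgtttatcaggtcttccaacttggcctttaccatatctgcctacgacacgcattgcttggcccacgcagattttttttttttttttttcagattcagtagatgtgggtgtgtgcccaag
Pogk: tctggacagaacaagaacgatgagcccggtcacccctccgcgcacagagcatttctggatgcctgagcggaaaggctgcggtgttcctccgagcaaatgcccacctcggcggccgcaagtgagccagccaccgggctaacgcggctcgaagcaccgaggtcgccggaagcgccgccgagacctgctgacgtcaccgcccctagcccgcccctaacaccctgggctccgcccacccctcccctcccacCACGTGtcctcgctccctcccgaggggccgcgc
Apex1: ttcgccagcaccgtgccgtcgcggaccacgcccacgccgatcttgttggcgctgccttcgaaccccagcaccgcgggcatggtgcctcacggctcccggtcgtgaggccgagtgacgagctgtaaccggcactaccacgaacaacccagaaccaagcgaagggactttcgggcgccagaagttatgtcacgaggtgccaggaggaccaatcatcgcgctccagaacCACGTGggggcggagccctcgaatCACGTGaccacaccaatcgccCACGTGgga
Atic: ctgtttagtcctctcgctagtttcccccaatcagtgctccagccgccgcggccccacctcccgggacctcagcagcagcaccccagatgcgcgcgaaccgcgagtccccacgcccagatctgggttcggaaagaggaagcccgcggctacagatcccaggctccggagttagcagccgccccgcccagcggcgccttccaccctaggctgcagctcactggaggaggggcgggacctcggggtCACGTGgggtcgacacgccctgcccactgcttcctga
Ung: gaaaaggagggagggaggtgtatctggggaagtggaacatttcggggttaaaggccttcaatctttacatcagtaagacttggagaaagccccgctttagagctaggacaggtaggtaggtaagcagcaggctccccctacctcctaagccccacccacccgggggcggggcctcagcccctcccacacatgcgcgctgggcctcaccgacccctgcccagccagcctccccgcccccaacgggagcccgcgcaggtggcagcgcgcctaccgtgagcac

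The window of Apex1 holds 3 copies, that of Il1r2 holds 2, those of Stag3, Pogk and Atic hold 1, and that of Ung holds 0. Pogk, a transposase-derived gene, was at 92.6 and 90 RPM in double_KO, 42.2 and 44.1 in Myc_KO and 29.5 and 30.8 in control. Its levels in Max_KO, 113 and 115 RPM, were above those in double_KO. Atic was at 179 and 182 RPM in double_KO, 117 and 121 in Myc_KO and 172 and 154 in control.

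Against Max_KO, Myc was lower in double_KO (192 and 176 RPM in Max_KO, log2 difference -1.99 ± 0.16), and 4 genes were higher. Jchain, the joining chain of secreted IgM, was at 137 and 261 RPM in double_KO, 37.3 and 35.4 in Max_KO and 210 and 255 in control. The other 3, Trim12a, Trim30d and Trim5, are antiviral Trim genes of a cluster on chromosome 7. Trim12a, which lies on chromosome 7 of GRCm38 from 104299894 to 104315466, had 82.8 and 41 RPM in double_KO and 0.441 and 0.834 in Max_KO, with 50.6 and 24.9 in control and 91.4 and 50.9 in Myc_KO. Replicate 1 was above replicate 2 in control, double_KO and Myc_KO for each of the 3, and none of the 3 was called against control. The Trim genes have close copies in the cluster, so the split of their reads among copies is uncertain. The plot of genes that differ from the groups lacking 1 protein shows these values by library.

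**Figure D5:**
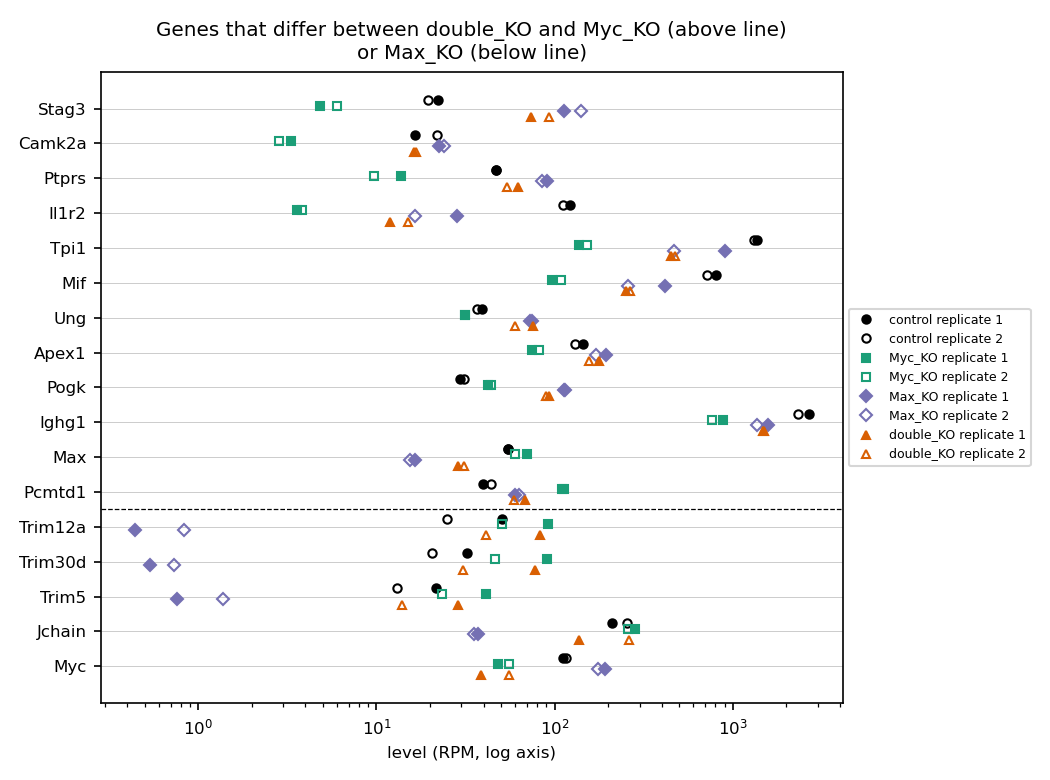
Levels in RPM on a log axis for genes that differ between double_KO and Myc_KO (above the dashed line) or Max_KO (below it), with 1 symbol for each library of the 4 groups, filled for replicate 1 and open for replicate 2. From Stag3 to Ighg1 the orange triangles of double_KO lie to the right of the green squares of Myc_KO, and for the Trim genes and Jchain they lie to the right of the purple diamonds of Max_KO.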

How the data were processed

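Per the submitters' processing notes, reads were handled with CASAVA 1.8, cutadapt and RSEM 1.2.3 on GRCm38; not given in the sources used here are the annotation, strand setting and tool behind the log2 values. The authors deposited 1 table of log2 values for the 8 libraries. Each is the log2 of a quotient, estimated reads plus 0.5 over an effective library size in M: subtracting the offset left multiples of 0.01 read. The estimated reads are not whole, so no count test was run. RPM are these reads over the effective size. The total over the effective size was 1.092 and 1.043 in control and 0.956 to 0.995 in the other groups.

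Genes with a log2 value of 0 or more in at least 2 of 8 libraries were fitted with limma 3.58.1 in R 4.3.3 (intensity trend; 1 model of the 4 groups from the titles; 4 residual degrees of freedom; Benjamini-Hochberg adjustment over 12489 genes; threshold 0.05). Log2 differences are double_KO minus the other group, on the scale of log2 of reads plus 0.5, which understates the change of low genes. The fit was tested on simulated data. Named genes were the key genes of each list, up to 3 called members of each list in each direction with the lowest adjusted p, and the 12 highest and 12 lowest differences against control, and 5 of each against Myc_KO and Max_KO. The last 2 sets were taken among called genes whose libraries do not overlap and whose mean is at least 5 RPM in 1 group, with no predicted gene models, receptor segments or unnamed genes. Named with their values known, outside these conditions, are Rpl29, Rps27, the genes of the closing observations and, against Myc_KO, those other than the 5 highest and lowest, such as Apex1, Atic, Pogk and Tpi1. The members and lists were chosen with earlier results of these data known, and pathway lists come from textbook knowledge. Gene positions and transcript lengths are from GENCODE vM21; 15622 of 15681 identifiers had a symbol. Intervals cover counting error only. The alternatives were other filters, offsets, scalings, groupings and variance models, leaving out each library, and, added after seeing the data, removal of a trend with transcript length (a lowess curve fitted in each library). Values of some genes are not reported here.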

Additional observations from a re-analysis of the deposited data

How the results depend on the processing

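The count against control (4823) was 2740 at an adjusted p under 0.01 (1685 higher, 1055 lower) and 1518 with a 2-fold minimum (708 higher, 810 lower). Without any 1 library the total lay between 2650 and 4932, the number higher between 1691 and 2742 and the number lower between 959 and 2190. Groups from the descriptions gave 5277, of which 4315 were the same genes in the same direction. Against Myc_KO (57) the count was 0 with groups from the descriptions, 26 without the 2 libraries in dispute, 33 with only the groups compared, 291 with a term for whether the title number is in the thirties or forties, 9 without a trend, 10 at an adjusted p under 0.01, 29 with a 2-fold minimum and 9 to 113 without any 1 library. Against Max_KO (5) it was 26, 24, 0 (630 at an unadjusted p under 0.05), 31, 0 (749), and 3 both with a robust fit and at an adjusted p under 0.01, and 3 to 24 without any 1 library. Differences that turned sign were Eef1a1 (0.15) and Eef2 (0.31) after quantile normalization and, with the length trend removed, Polr1a (-0.01), Eif5b (-0.10), Acaca (-0.27), Foxo1 (-0.17), Rel (-0.06), Mtor (-0.07), Trrap (-0.13), Kmt2d (-0.21) and Arid1a (-0.10); the cause was not tested. Of 384 named genes 289 were called against control, and 168 of these were called under every alternative. No paired analysis was possible because both double_KO libraries carry the replicate number 1 in their descriptions, and the titles carry none. Depth limits genes listed at a few estimated reads, such as Met and Smc1b in control, whose ratios have wide intervals.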

Other observations

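The genes in this paragraph were chosen after their values were seen, from those called under every alternative. Fcmr, the Fc receptor for IgM, went from 11.3 and 10.9 RPM in control to 124 and 62.1 in double_KO. Sorl1, a sorting receptor, went from 97.8 and 93.9 RPM to 522 and 493. Mpeg1, which encodes the pore-forming protein perforin-2, went from 14.9 and 13.8 RPM to 103 and 95, and the genes Ms4a4c and Ms4a6c, of the family that holds CD20, from 14.8 and 13.6 to 147 and 90.8 and from 12.5 and 12.1 to 112 and 75.3. The kinase genes Lrrk2 and Hipk2 went from 22 and 22.4 RPM to 118 and 103 and from 26.4 and 30.9 to 122 and 152. These genes were all higher in both double_KO libraries, with log2 differences of 2.25 for Hipk2 and 2.98 for Fcmr.

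Signalling molecules were found among the lowered genes. Csf1, the macrophage growth factor, went from 203 and 198 RPM to 33.9 and 29.7 (log2 difference -2.66), and Jag2, a Notch ligand, from 29.2 and 31.1 to 2.79 and 4.11 (-3.14). The receptor kinase gene Epha2 went from 27.3 and 23.8 RPM to 3.3 and 4.55, and the base excision glycosylase gene Neil1 from 124 and 142 to 21.9 and 35.8. The double_KO and control libraries did not overlap for any of the 4, as for most genes tested.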
